A study of Homo sapiens with 6 samples.

Results

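The zinc finger genes of human chromosome 19 were followed in the established human hepatocellular line HepG2 after knockdown of the long non-coding RNA LINC01977. Members were the chromosome 19 rows of the deposited table whose name is ZNF, a number and at most 1 letter. The rule found 227 of the 29153 listed genes, after 17 other rows with a ZNF name (pseudogenes, antisense RNAs and read-through transcripts) were left out. Of these, 148 had a mean FPKM (fragments scaled to transcript length and library size) of at least 0.5 over all 6 libraries and entered the test, and 79 lay below it.

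The study compared 3 libraries of HepG2 cells given a control hairpin (shNC in the labels, here sh-NC) with 3 libraries of cells given a hairpin against LINC01977 (sh3 in the labels, here sh-LINC01977), each by lentivirus for 72 h. The labels give the hairpin as the difference between the groups, and 1 hairpin stands for the knockdown. The labels do not say that the libraries of a group came from separate cultures, so p-values measure the spread between these libraries, which may be technical. Total counts lay between 49929024 and 60441515. LINC01977 had counts of 4, 0 and 16 under sh-NC and of 0, 0 and 4 under sh-LINC01977, so its reduction was not detectable at this depth (log2 fold change -2.12, SE 1.96, edgeR adjusted p = 0.580 in a fit of all listed genes). The paper reports that quantitative PCR verified the knockdown in its stable HepG2 line. Whether that line is the one sequenced here is not stated. Of 9 hepatocyte markers, 7 fell at an edgeR adjusted p under 0.05, beside 8.07% of all tested genes, ALB by 1.09 on the log2 scale. APOB (log2 fold change 0.0074) and TTR (-0.17) did not pass. The summed FPKM of the 9 was 4440 to 4810 in sh-NC and 3130 to 3190 in sh-LINC01977 libraries. Of the mesenchymal markers, PDGFRB rose (log2 fold change 1.47), COL1A1 missed the threshold (log2 fold change 0.73, edgeR adjusted p = 0.0504) and was called by DESeq2 and limma, and COL3A1, THY1 and VIM stayed below the filter. The leukocyte marker PTPRC and the endothelial marker CDH5 were also below it, and none of the tested leukocyte genes passed the test. The part of these markers in the results below was not tested.

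Most ZNF genes of chromosome 19 encode proteins with a row of C2H2 zinc fingers, each of which holds a zinc ion between a pair of cysteines and a pair of histidines and contacts a few bases of DNA. Many carry a KRAB domain near the amino terminus. KRAB recruits the corepressor TRIM28 (KAP1), which brings the histone methyltransferase SETDB1 and HP1 proteins and so silences the bound DNA, often a retroelement. The genes arose by tandem duplication and stand in clusters along the chromosome, and related members share parts of their sequence.

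The summed level of the family did not differ between the groups beyond the spread. The summed level of the 227 members, as CPM (counts scaled to a common library size after TMM normalization), was 1654, 1647 and 1724 under sh-NC and 1661, 1656 and 1654 under sh-LINC01977. All the sh-LINC01977 sums lie within the sh-NC range, and the means were 1675 ± 42.6 and 1657 ± 3.61 (SD, n = 3), a ratio of 0.989. On the FPKM scale the sums were 282.8 ± 10.1 and 294.1 ± 6.27 (SD, n = 3). The test was edgeR's quasi-likelihood test on counts, over all 13452 genes that passed the filter, with Benjamini-Hochberg adjustment over all of them. The median log2 fold change (sh-LINC01977 over sh-NC) of the 148 tested members was 0.0108, beside -0.00101 for all tested genes. Of the members, 76 lay above 0 (51.4%), beside 49.8% of all tested genes.

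Few members passed the test. At an adjusted p under 0.05, 5 of the 148 tested members (3.38%) were called, beside 15.1% of all tested genes. ZNF888, ZNF419 and ZNF439 rose, beside 7.05% of all tested genes, and ZNF296 and ZNF787 fell, beside 8.07%. The study's methods set a fold change of 2 and a P of 0.05, taken here as unadjusted. Past these, ZNF888 was the only member of the 148, beside 2.6% of all tested genes. Groups did not overlap in 30 members (20.3%), beside 37.1% of all tested genes. The share without overlap was 19.9% for tested ZNF genes on other chromosomes and 37.4% for the other tested genes of chromosome 19. At an unadjusted p under 0.05 the shares were 6.76% of members (10) and 30.5% of all tested genes. At an adjusted p under 0.05, 12 of 186 tested ZNF genes on other chromosomes were called (6.45%), and 135 of the 787 other tested genes of chromosome 19 were called (17.2%). The differences between these shares were not tested.

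**Figure D1:**
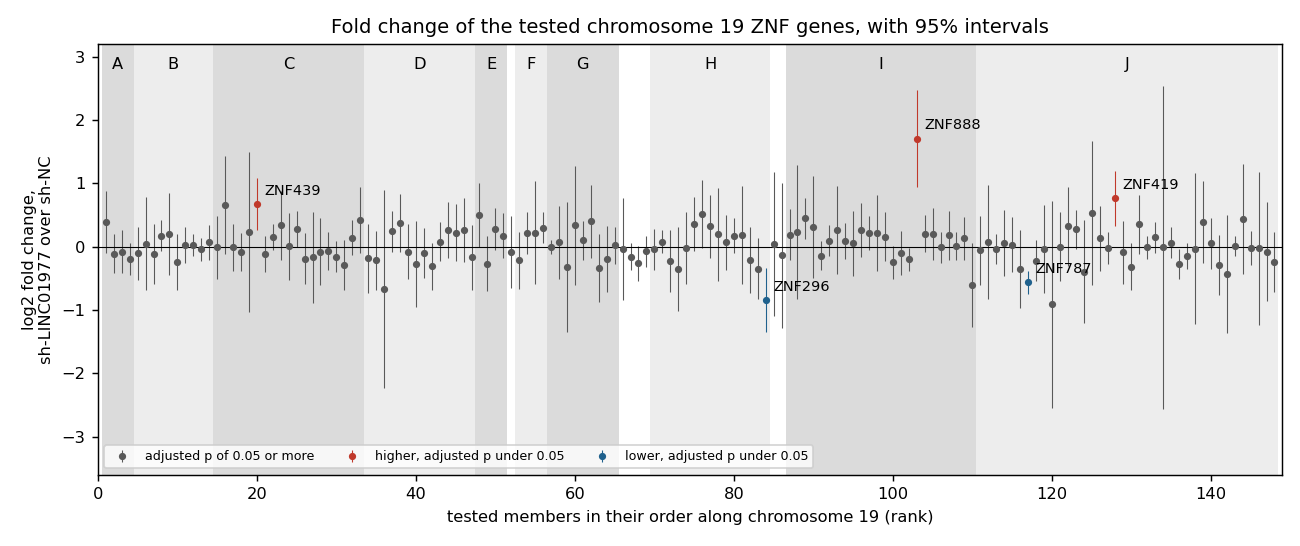
Log2 fold change (sh-LINC01977 over sh-NC, vertical axis) of the 148 tested members in their order along chromosome 19 (horizontal axis, rank); points are estimates, bars 95% intervals, shaded bands the clusters A to J. The members ZNF888, ZNF419 and ZNF439 (red) and ZNF296 and ZNF787 (blue) have an adjusted p under 0.05, and most other points lie close to 0.

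Members are lowly expressed, with a median FPKM of 1.16 against 4.14 over all tested genes, so calls were also counted by level, in bands set after the files were seen. At a mean FPKM of 0.5 to 1, 2 of 62 members were called beside 7.86% of all genes in the band. At 1 to 2, 2 of 47 were called beside 10.7%, and at 2 to 5, 0 of 34 beside 13.8%. At 5 or more, 1 of 5 was called beside 19.8%. In the 3 lower bands the members' share lay below that of genes of like level, a difference that was not tested, and the highest band holds few members. In the band of 2 to 5, DESeq2 and limma also called 0 of the 34, and 2 had an unadjusted p under 0.05 with edgeR. In the band of 2 to 5 the median standard error of the log2 fold change was 0.120 for members and 0.111 for all genes, while the SD of the log2 fold changes was 0.155 for members and 0.394 for all genes. A change past 2-fold lay outside the 95% interval for 121 of the 148 members (81.8%), beside 82.4% of all tested genes, so for the other 27 members the interval reached past a 2-fold change.

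**Figure D2:**
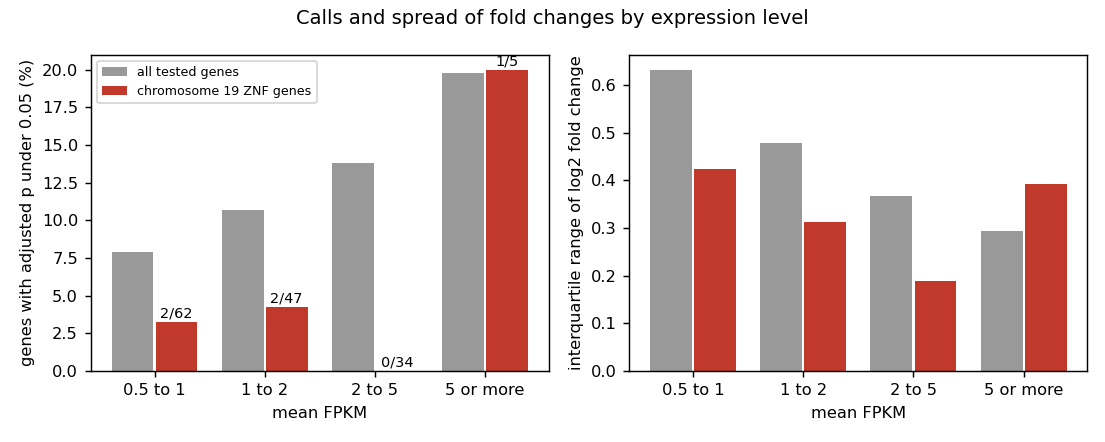
Left, genes with an adjusted p under 0.05 (%) and right, interquartile range of the log2 fold change, for all tested genes (grey) and tested chromosome 19 ZNF genes (red) in 4 bands of mean FPKM. The members' bars are lower than the grey bars on both sides up to an FPKM of 5, with 2 of 62, 2 of 47 and 0 of 34 called.

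ZNF888 (ENSG00000213793, chromosome 19, 52904417 to 52923481, minus strand, GRCh38), a member with the KRAB pattern described below, had the highest fold change of all tested members. Its levels were 1.47, 3.06 and 3.59 CPM under sh-NC and 9.43, 9.22 and 7.89 CPM under sh-LINC01977. Every sh-LINC01977 library lay above every sh-NC library, although the sh-NC libraries differed by 2.44-fold among themselves. The mean rose from 2.71 ± 1.10 to 8.84 ± 0.837 CPM (SD, n = 3), a 3.27-fold change (log2 fold change 1.71, SE 0.318, edgeR adjusted p = 0.0156). Its call was lost without the first (adjusted p = 0.0507) or the second (adjusted p = 0.0529) sh-LINC01977 library. Of the 50-base stretches in its transcripts, 15.02% also occur in another gene, mostly ZNF701, and an antisense gene overlaps it. Its neighbours did not show such a change: ZNF816, which starts after it, had a log2 fold change of 0.21 (SE 0.122, edgeR adjusted p = 0.307). ZNF320, on the other side, lay below the filter and had -0.54 (SE 0.333, edgeR adjusted p = 0.453 in the fit of all listed genes). Both neighbours were chosen after their values were seen.

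ZNF419 (ENSG00000105136, chromosome 19, 57487711 to 57496097, plus strand), a KRAB zinc finger gene known as the source of a minor histocompatibility antigen, also rose. It stood at 4.48, 4.16 and 3.26 CPM in sh-NC and at 7.80, 6.46 and 5.92 CPM in sh-LINC01977 libraries, with no overlap. The change was 1.70-fold (log2 fold change 0.76, SE 0.180, edgeR adjusted p = 0.0345). ZNF439 (ENSG00000171291, chromosome 19, 11848726 to 11883750, plus strand), which shares 7.35% of its 50-base stretches with other genes, mostly ZNF440, stood at 2.72, 2.66 and 2.21 CPM in sh-NC and at 3.51, 4.27 and 4.31 CPM in sh-LINC01977 libraries. Here too the groups did not overlap, and the change was 1.59-fold (log2 fold change 0.67, SE 0.171, edgeR adjusted p = 0.0438). Both lie near the filter, with a mean FPKM of 0.530 and 0.510. Both lost their call in fits with any 1 library left out. AC020951.1, another listed gene, overlaps ZNF439 on the same strand, so reads of ZNF439 may be split between genes.

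ZNF787 (ENSG00000142409, chromosome 19, 56087366 to 56121280, minus strand), a zinc finger gene without the KRAB pattern, fell. It stood at 42.9, 38.6 and 43.03 CPM under sh-NC and at 28.9, 26.4 and 29.04 CPM under sh-LINC01977. The groups were far apart relative to their spread, with means of 41.5 ± 2.56 and 28.1 ± 1.48 CPM (SD, n = 3). The log2 fold change was -0.56 (SE 0.0751, edgeR adjusted p = 0.00504), a change of 1.48-fold. ZNF296 (ENSG00000170684, chromosome 19, 45071500 to 45076588, minus strand), whose mouse counterpart is known from pluripotent cells, fell as well. It stood at 3.95, 4.26 and 2.84 CPM in sh-NC and at 1.78, 2.17 and 2.20 CPM in sh-LINC01977 libraries. The groups did not overlap, and the log2 fold change was -0.84 (SE 0.212, edgeR adjusted p = 0.0423), a change of 1.79-fold. Its call was lost in the 5 fits that left out a library other than the third sh-NC library.

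**Figure D3:**
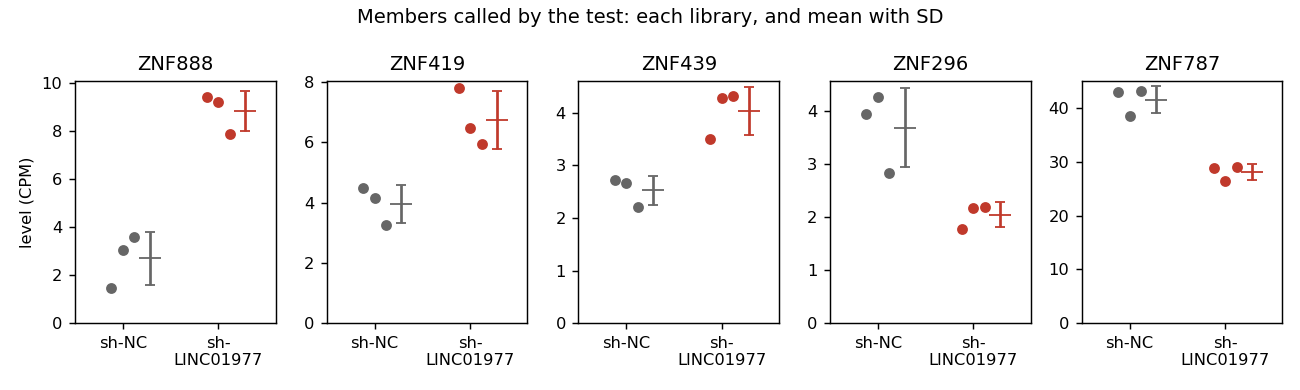
Level (CPM, vertical axis from 0, a separate scale in each panel) of the 5 called members in each of the 3 sh-NC (grey) and 3 sh-LINC01977 (red) libraries; the bars beside the points give the mean and SD. In each panel the groups do not overlap, and the gap is wide for ZNF888 and for ZNF787, which stands at 42.9, 38.6 and 43.03 against 28.9, 26.4 and 29.04 CPM.

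The promoters of these members, as 250 bases before to 50 bases after the RefSeq start on GRCh38.p14, are printed because they are where a shared sequence would stand. RefSeq promoters were matched for 201 of the 227 members, and ZNF888 was not among them. Motifs were searched on both strands and are in capitals, CCGGAAGT (ETS) in ZNF787 and ZNF419 and CACGTG (E-box) in ZNF296; in ZNF787 the first capital stretch holds overlapping matches on both strands and the second a single match.
ZNF419 chr19:57487500-57487799 (+ strand): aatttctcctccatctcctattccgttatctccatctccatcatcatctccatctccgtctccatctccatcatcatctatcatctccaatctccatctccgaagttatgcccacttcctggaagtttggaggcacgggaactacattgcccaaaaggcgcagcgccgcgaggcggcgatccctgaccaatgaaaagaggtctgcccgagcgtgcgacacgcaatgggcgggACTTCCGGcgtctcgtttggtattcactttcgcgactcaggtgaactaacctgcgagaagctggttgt
ZNF439 chr19:11848476-11848775 (+ strand): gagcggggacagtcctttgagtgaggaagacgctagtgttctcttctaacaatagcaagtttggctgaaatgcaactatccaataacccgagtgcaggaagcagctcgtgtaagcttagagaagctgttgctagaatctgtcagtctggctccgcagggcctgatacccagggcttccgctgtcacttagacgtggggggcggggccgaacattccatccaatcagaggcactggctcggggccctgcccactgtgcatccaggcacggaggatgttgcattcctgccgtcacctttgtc
ZNF787 chr19:56121246-56121545 (- strand): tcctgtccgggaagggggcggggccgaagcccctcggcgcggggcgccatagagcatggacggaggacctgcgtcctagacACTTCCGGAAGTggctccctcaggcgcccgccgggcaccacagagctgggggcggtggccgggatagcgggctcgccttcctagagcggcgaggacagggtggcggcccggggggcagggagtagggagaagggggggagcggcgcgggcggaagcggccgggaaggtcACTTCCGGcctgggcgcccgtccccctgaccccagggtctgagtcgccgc
ZNF296 chr19:45076429-45076728 (- strand): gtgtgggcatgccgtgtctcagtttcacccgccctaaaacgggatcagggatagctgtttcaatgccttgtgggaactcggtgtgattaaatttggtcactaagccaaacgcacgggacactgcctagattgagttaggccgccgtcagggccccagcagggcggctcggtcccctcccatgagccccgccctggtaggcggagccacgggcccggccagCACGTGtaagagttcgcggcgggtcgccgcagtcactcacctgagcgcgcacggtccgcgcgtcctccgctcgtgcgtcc
No motif searched is held by all of them. Of those that rose, ZNF419 holds an ETS motif and ZNF439 holds none of the motifs searched, and the ETS motif also stands in ZNF787, which fell.

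Across the family, member promoters held ETS motifs in 21.4% of 201, beside 4.14% of all 35116 promoters of the same length. TGCGCA (NRF1) was in 19.4% beside 8.24%, and the TATA box, TATAAA, in 1.99% beside 11.5%. The shares were 3.48% beside 1.85% for TGACGTCA (CRE), 4.48% beside 7.26% for the E-box, 3.98% beside 1.75% for AAGATGGCG (YY1) and 1.0% beside 0.69% for CTCGCGAGA (Kaiso). The differences between these shares were not tested, and the members, as duplicates of each other, are not independent promoters. The median number of CpG was 20 in member promoters beside 14 in all. By motif, the median log2 fold change was -0.00482 for 27 tested members with the ETS motif and 0.00774 for 103 without it, and -0.0046 for 20 with the NRF1 motif and 0.0046 for 110 without it. The other motifs were in 6 or fewer tested members each, with medians from -0.121 for Kaiso (1 member) and -0.0843 for the E-box (5) to 0.262 for the TATA box (3). Across the 130 tested members with a promoter, Spearman's rho between CpG number and log2 fold change was 0.017, a description across genes, which are not independent replicates.

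Members differed by their protein. A KRAB pattern, a rough run of conserved residues of the KRAB A box in the first 250 residues of any annotated coding sequence, was revised after the files were seen. It misses some known KRAB genes, among them ZNF324 and ZNF181. The set without the pattern is therefore not a set of genes without KRAB. It was found in 186 members, of which 118 were tested, and 40 members lacked it, of which 29 were tested; ZNF788 has no complete coding sequence. Members with the pattern had a median of 13 zinc fingers among those tested and the others 9, with ZNF91 at 32. ZNF91, a KRAB gene that represses SVA retroelements, has the most fingers of all members.

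Of the 118 tested members with the KRAB pattern, 69 lay above 0 and the median log2 fold change was 0.0665. Of the 29 without it, 6 lay above 0 and the median was -0.0843. The shares above 0 were 58.5% and 20.7%, beside 49.8% of all tested genes and 45.7% of tested ZNF genes on other chromosomes. With library totals, which moved the median of all genes to 0.065, 12 of the 29 lay above 0 (median -0.015), with limma at either pseudocount 11, and with 1 library left out 4 to 9. Of the called members, ZNF888, ZNF419 and ZNF439, which rose, have the pattern, as do 118 of the 148 tested members. ZNF296 and ZNF787, which fell, lack it. The called members are part of the counts and medians above, so they are no separate evidence for a split. The difference between the sets with and without the pattern was not tested. The summed level of the tested members without the pattern was 463.0, 489.6 and 477.9 CPM under sh-NC and 466.0, 424.6 and 421.4 CPM under sh-LINC01977, so the first sh-LINC01977 library lay within the sh-NC range and the other libraries below it. That of members with the pattern was 1054, 1039 and 1093 CPM in sh-NC and 1056, 1089 and 1104 CPM in sh-LINC01977 libraries, with overlap.

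**Figure D4:**
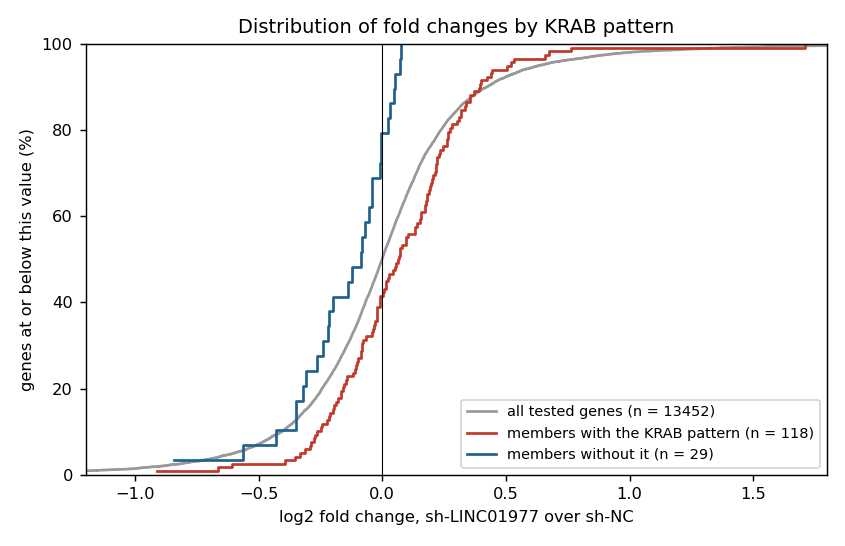
Share of genes (%, vertical axis) at or below each log2 fold change (horizontal axis) for all 13452 tested genes (grey), the 118 tested members with the KRAB pattern (red) and the 29 without it (blue). The blue curve ends at 0.077, with 6 of 29 genes above 0, and the red curve runs to the right of the grey one over most of its range.

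The sets without and with the pattern also differ in base composition, with a median transcript GC content of 58.7% and 42.4%, and in level, with a median FPKM of 2.03 and 1.08. Over all tested genes the median log2 fold change was -0.0278 at a transcript GC of at least 50% (6194 genes) and 0.017 below it (7231 genes). Among members without the pattern the median was -0.0615 for the 18 at or above that limit and -0.199 for the 11 below it. Medians also moved with level. From the lowest to the highest FPKM band they were 0.0818, 0.0463, -0.000762 and -0.0226 for genes of any kind. For members they were 0.0619, 0.0651, -0.0423 and -0.00437, the last from 5 members. Across the 148 tested members, Spearman's rho with the log2 fold change was -0.21 for mean FPKM and -0.046 for transcript GC. The part of level in the difference between the sets was not tested. In a fit with GC content and length corrected in each library, the medians were 0.029 with the pattern and -0.11 without it. Over all alternatives, the median less that of all tested genes lay between 0.0272 and 0.0884 with the pattern and between -0.133 and -0.0407 without it. ZNF580 and ZNF581, both without the pattern, overlap each other and CCDC106 on the same strand, so their reads may be split between genes.

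The genes fell into 10 clusters of at least 5 members (neighbours starting within 1 Mb), named A to J, with 10 members outside them. Cluster medians of the log2 fold change ran from -0.0945 in cluster A (2.82 to 2.94 Mb, 4 tested) to 0.226 in cluster E (23.1 to 24.1 Mb, 4 tested). In the larger clusters the medians were -0.00482 in cluster C (11.5 to 12.6 Mb, 19 tested), 0.168 in cluster I (51.6 to 53.6 Mb, 24 tested) and -0.0218 in cluster J (55.5 to 58.5 Mb, 38 tested). No cluster held more than 2 called members. ZNF439 is in cluster C, ZNF296 in cluster H, ZNF888 in cluster I, and ZNF419 and ZNF787, which moved in opposite directions, are both in cluster J.

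Cluster I, where all 24 tested members have the KRAB pattern, had 18 of them above 0, beside 49.8% of all tested genes. Its summed level was 287.4, 276.1 and 271.1 CPM in sh-NC and 286.4, 294.1 and 285.1 CPM in sh-LINC01977 libraries, which overlap. Cluster J, with 55 listed members the largest, had 16 of 38 above 0. Its sum was 451.5, 424.3 and 440.6 CPM in sh-NC and 417.3, 420.7 and 391.2 CPM in sh-LINC01977 libraries. In cluster J alone of the 10, every sh-LINC01977 sum lay on the same side of every sh-NC sum, and the ratio of the means was 0.934. That sum includes ZNF787, which was called. It also includes ZNF581 and ZNF264, each far lower in the third sh-LINC01977 library than in the rest of its group. The sum without these members is not given here, so the gap is not shown to be one of the whole cluster. The cluster sums were not tested; the exact two-sided permutation test gives no p under 0.1 with 3 libraries against 3.

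**Figure D5:**
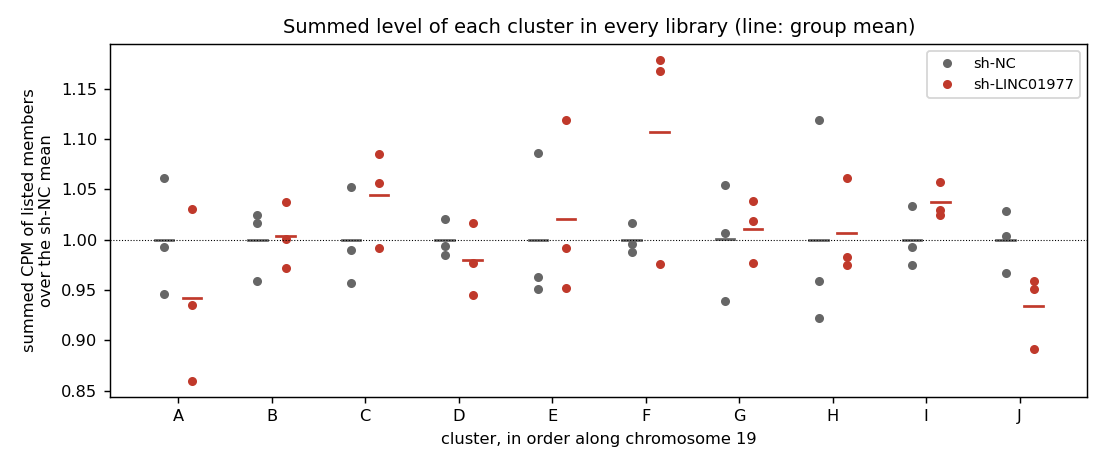
Summed CPM of the listed members of each cluster over the mean of the sh-NC libraries (vertical axis, not from 0) for clusters A to J in order along the chromosome; points are libraries (grey sh-NC, red sh-LINC01977), short lines group means. The groups overlap in each cluster but J, where the sh-LINC01977 mean is 0.934 of the sh-NC mean. The sum of J includes the called member ZNF787.

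Of the 5 most abundant members per length, only ZNF787 was called. ZNF146, which encodes a protein made of little but zinc fingers, was the highest with a mean FPKM of 18.7. It stood at 93.6, 99.3 and 94.2 CPM in sh-NC and 95.9, 97.0 and 93.3 CPM in sh-LINC01977 libraries, with a log2 fold change of -0.0044 (95% interval -0.12 to 0.11). ZNF428 (mean FPKM 9.85) had a log2 fold change of 0.077 (95% interval -0.10 to 0.26). ZNF581 (9.16) stood at 23.1, 21.9 and 21.2 CPM in sh-NC and 21.1, 20.5 and 10.4 CPM in sh-LINC01977 libraries, where the third library lay far below the other two. Its log2 fold change was -0.35 (SE 0.257, edgeR adjusted p = 0.404). ZNF114 (9.10) stood at 20.9, 21.1 and 56.9 CPM in sh-NC and 27.4, 23.4 and 51.1 CPM under sh-LINC01977. The third library of each group was high, and the log2 fold change was 0.04 (SE 0.475).

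Such spread within a group occurred in other members too. In 29 of the 148 tested members (19.6%) the libraries of 1 group differed by over 2-fold, beside 11.7% of all tested genes, whose levels are higher. ZNF264 stood at 12.85, 12.85 and 13.3 CPM under sh-NC and at 10.2, 9.43 and 1.05 CPM under sh-LINC01977, where 1 library lay far below all others. ZNF551 stood at 11.8, 1.72 and 1.58 CPM under sh-NC and at 1.599, 1.69 and 11.75 CPM under sh-LINC01977, so 1 library of each group was high and the other libraries were alike. These had the widest ranges within a group and, like the neighbours of ZNF888, were chosen after their values were seen. ZNF551 overlaps AC003006.1 on the same strand and ZNF154 on the other, so its reads may be split between genes. AC003006.1 had counts of 0, 11 and 13 in sh-NC and of 23, 3 and 35 in sh-LINC01977 libraries. ZNF627, named after its values were seen, stood at 3.51, 7.40 and 9.34 CPM in sh-NC and at 10.4, 10.7 and 10.9 CPM in sh-LINC01977 libraries. Its groups did not overlap, and yet the sh-NC spread left a log2 fold change of 0.66 with an SE of 0.326 (edgeR adjusted p = 0.226).

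None of the 5 tested members with a textbook role passed the test, beside 15.1% of all tested genes. ZNF274 binds the 3′ ends of other ZNF genes of this chromosome and recruits SETDB1 there. It stood at 25.2, 25.2 and 24.1 CPM in sh-NC and at 24.2, 25.8 and 25.2 CPM under sh-LINC01977, with a log2 fold change of 0.014 (95% interval -0.15 to 0.17). ZNF91 stood at 11.7, 13.6 and 10.6 CPM in sh-NC and at 8.39, 12.5 and 8.95 CPM in sh-LINC01977 libraries, which overlap (log2 fold change -0.27, SE 0.181, edgeR adjusted p = 0.369). ZNF331, an imprinted gene, stood at 22.6, 14.2 and 12.4 CPM in sh-NC and at 9.83, 8.495 and 13.9 CPM in sh-LINC01977 libraries. The overlap came from the third sh-LINC01977 library, and the log2 fold change was -0.61 (SE 0.277, edgeR adjusted p = 0.194) and -0.305 without the first sh-NC library. ZNF350 (ZBRK1), a BRCA1-binding repressor, stood at 5.84, 5.49 and 4.52 CPM in sh-NC and at 6.96, 7.49 and 7.13 CPM in sh-LINC01977 libraries. Its groups did not overlap, but it missed the threshold (log2 fold change 0.45, SE 0.137, edgeR adjusted p = 0.0775) and passed it with library totals and with DESeq2. ZNF224, a repressor of the aldolase A gene, had 0.19 (SE 0.309, edgeR adjusted p = 0.715).

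The most abundant member of each remaining cluster was not called either. The log2 fold changes were -0.08 for ZNF57 (SE 0.143), 0.20 for ZNF317 (SE 0.269), -0.01 for ZNF823 (SE 0.155), -0.18 for ZNF101 (SE 0.228) and -0.14 for ZNF614 (SE 0.0965). ZNF792, the top member of cluster F, stood at 7.95, 7.97 and 8.02 CPM in sh-NC and at 10.1, 9.10 and 10.4 CPM in sh-LINC01977 libraries. Its groups did not overlap, and it missed the threshold (log2 fold change 0.30, SE 0.0998, edgeR adjusted p = 0.0932).

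The 79 members below the filter were read from a fit of all 29153 listed genes. At an adjusted p under 0.05, 0 of them were called, beside 5.36% of all listed genes in that fit. That share also covers the 13452 genes above the filter, so it is not one for genes of like level. The share for the 15701 listed genes below the filter alone is not given here. The lowest adjusted p was 0.0638, 9 members had an unadjusted p under 0.05, and the highest count of any of these members in any library was 405. The median log2 fold change of these members was 0.115, with 51 above 0, beside 0.0144 for all listed genes above and below the filter. ZNF93, which represses LINE-1 elements, stood at 0.0401 to 0.147 CPM in 2 of the sh-NC libraries, at 0 in the third, and at 0.131 to 0.230 CPM in sh-LINC01977 libraries, so it was close to undetected. ZNF382, a KRAB repressor, stood at 3.401, 1.22 and 5.56 CPM in sh-NC and at 4.76, 3.27 and 1.46 CPM in sh-LINC01977 libraries and differed by over 3-fold within each group.

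The partners through which KRAB proteins silence DNA were followed in a list of 29 genes, of which 28 were tested. TRIM24, CHD3 and CBX1 rose and DAXX fell, 4 of 28 called beside 15.1% of all tested genes. The median log2 fold change was 0.00418, with 14 above 0. The summed FPKM of the 29 was 424 to 431 in sh-NC and 453 to 469 in sh-LINC01977 libraries, without overlap. FPKM values are not TMM-scaled, and limma on log2(FPKM + 0.1) put the median of all tested genes at 0.063. The difference between the sums was not tested. TRIM28, the KRAB corepressor, stood at 215.3, 206.7 and 222.9 CPM in sh-NC and at 232.6, 213.4 and 209.3 CPM in sh-LINC01977 libraries, which overlap (log2 fold change 0.02, SE 0.0563, edgeR adjusted p = 0.821). SETDB1, the histone methyltransferase, had a log2 fold change of -0.09 (SE 0.0578, edgeR adjusted p = 0.319), and its partner ATF7IP lay below the filter. CBX5, an HP1 protein, stood at 62.1, 72.6 and 67.3 CPM in sh-NC and at 79.2, 77.8 and 75.9 CPM in sh-LINC01977 libraries and missed the threshold (log2 fold change 0.21, edgeR adjusted p = 0.0974). CBX1, also an HP1 protein, passed it (log2 fold change 0.23, SE 0.0523, edgeR adjusted p = 0.0313). The HUSH complex genes MPHOSPH8, TASOR (FAM208A in the table) and PPHLN1 had log2 fold changes of -0.08, 0.10 and 0.18, and none passed. TRIM24, a relative of TRIM28, had the smallest adjusted p of the list (log2 fold change 0.37, SE 0.0357, edgeR adjusted p = 0.00174), CHD3, a chromatin remodeller that TRIM28 binds, rose by 0.55 (SE 0.0939, edgeR adjusted p = 0.0116), and DAXX, a histone chaperone, fell by 0.39 (SE 0.101, edgeR adjusted p = 0.0476).

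Zinc finger genes of the chromosome that bear other names, such as PEG3, ZFP14 and ZIK1, gave 0 called of 9 tested by edgeR, beside 15.1% of all tested genes. In this list 0 had an unadjusted p under 0.05 with edgeR, DESeq2 and limma also called 0, and there was a median log2 fold change of -0.153. Genes of endogenous retroviruses, the kind of sequence that KRAB zinc finger proteins bind, were mostly below the filter, with 1 of 9 tested. That gene, ERV3-1, stood at 26.9, 26.2 and 24.0 CPM in sh-NC and at 31.8, 35.2 and 33.6 CPM in sh-LINC01977 libraries and rose (log2 fold change 0.38, SE 0.0758, edgeR adjusted p = 0.0188). ERVH48-1, below the filter, stood at 0.276, 0.200 and 0.360 CPM in sh-NC and at 2.22, 2.39 and 1.55 CPM in sh-LINC01977 libraries, with no overlap (log2 fold change 2.86, SE 0.335, edgeR adjusted p = 0.00389 in the fit of all listed genes). None of the other 7 passed the test in that fit. Retroelement copies outside these gene rows were not analysed here.

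Sequence shared between members limits how far a row is 1 gene. Over the 227 members, a median of 2.46% of the 50-base stretches of a member's transcripts also occur in another gene, and 20 members share at least 20%, among them ZNF320 (75.2%) and ZNF468 (55.8%), which share with each other. None of the 5 called members is among these 20, and the values of the 20 are uncertain to that extent. Of the members, 147 overlap another listed gene, and the sources used here do not say whether reads were counted by strand.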

How the data were processed

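RNA of 6 HepG2 libraries was extracted by the authors with TRIzol, and a HiSeq 4000 was used for sequencing. The submitters' processing notes name bcl2fastq 2.0, HISAT2, StringTie, DESeq2, limma and hg38 without roles; which of them counted the reads, and by which annotation, is not given in the sources used here. The deposited counts are whole numbers per gene without normalization. The deposited FPKM values are fragments scaled by the authors to transcript length and library total. Groups came from the labels.

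Counts were tested with edgeR 4.0.16 (TMM, quasi-likelihood, Benjamini-Hochberg) in R 4.3.3. The filter, a mean FPKM of 0.5 or more, kept 13452 genes; other genes were read from a fit of all 29153. CPM are counts over the TMM-scaled total. On simulated counts with 3 libraries against 3, it recovered 66% to 94% of genes changed by a log2 fold change of 1 or 2 in either direction, with 9 false calls. The changed genes were drawn at random from all tested genes, whose median FPKM was 4.14 beside 1.16 for members. The share recovered was not found for members alone or for smaller changes. The 95% intervals use the test's degrees of freedom.

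Members named are those called, the 5 highest by FPKM, the highest of each cluster and 8 with a textbook role, of which ZNF676 was not listed; members and lists were chosen with earlier results of these data known. Transcript GC, shared 50-base stretches, finger counts and the KRAB pattern came from GENCODE 29 on GRCh38, in which all 227 members are found and 222 have the same start and end; promoters came from RefSeq. Same-numbered libraries of the groups did not deviate together (r of -0.0286, 0.0174 and 0.0552), so the replicate number was not used as a pairing. Alternatives were RLE scaling, library totals, other filters, DESeq2 1.42.0, limma 3.58.1 on log2(FPKM + 0.1) and log2(FPKM + 1), a replicate block, a GC and length correction, members with little shared sequence and leaving out each library.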

Additional observations from a re-analysis of the deposited data

How the results depend on the processing

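ZNF787 was called in 16 of 16 alternatives (log2 fold change -0.612 to -0.439) and ZNF888 in 14 of 16 (0.846 to 1.97); ZNF888 was not called without the first or the second sh-LINC01977 library (adjusted p up to 0.0529). ZNF296 was called in 7 alternatives, ZNF419 in 6 and ZNF439 in 4. The 3 members that rose became 1 with no filter, with a mean FPKM filter of 1, and with limma at either pseudocount, and 0 to 1 with 1 library left out. The 2 that fell became 1 with no filter, with the replicate block, with the GC and length correction and with both together, and 1 to 2 with 1 library left out. The count past 2-fold and P of 0.05 was 5 with no filter, 0 with limma on log2(FPKM + 1) and 1 to 2 with 1 library left out. The members' median less that of all genes was -0.00152 with the replicate block and GC and length correction and 0.00118 to 0.0325 with 1 library left out, the highest without the first sh-LINC01977 library. The highest cluster median was 0.0725 with a 2 Mb gap, which leaves 6 clusters. With the replicate block 3 members were called, ZNF419, ZNF787 and ZNF888. Library totals moved the median of all tested genes to 0.065. The cause of these moves was not tested, beyond the fewer libraries or genes that a setting holds.

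Of 317 alternative values of the 20 tested members named by rule, 264 kept direction and side of the threshold, 31 lost a call, 2 gained one and 20 turned sign, all of them in members that were not called. With 1 library left out, ZNF101 ran from -0.475 to 0.0119, above 0 without sh-LINC01977 replicate 3. ZNF114 ran from -0.377 to 0.697, with -0.201 and -0.197 without sh-NC replicates 1 and 2. ZNF146 was 0.0611 with library totals, 0.0032 with the stricter filter, 0.0597 and 0.057 with limma at pseudocounts 0.1 and 1, and -0.0203 to 0.0229 with 1 library left out (0.0118 without sh-LINC01977 replicate 3). In the same way ZNF224 ran from -0.077 to 0.484, ZNF274 from -0.00811 to 0.041 (-0.00425 without sh-NC replicate 3) and ZNF317 from -0.0318 to 0.429. ZNF823 was 0.054 with library totals, 0.068 and 0.0537 with limma, 0.00326 with the replicate block, and -0.129 to 0.15 with 1 library left out (0.0538 without sh-LINC01977 replicate 1).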
